A study of Mus musculus with 2 samples.

Results

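The MYC, MAX and MXD network was followed in mouse bone-marrow-derived macrophages as 10 genes: Myc, Max, Mlx, Mlxip, Mxd1, Mxi1, Mxd3, Mxd4, Mnt and Mga. The members were taken by gene symbol, and every probe set that the Mouse Genome 430 2.0 annotation assigns to 1 gene, that gene being a member, was included. This gave 24 probe sets of the 34945 on the array with 1 gene, and 10 genes of 18193. The macrophages came from C57BL6 mice, were grown in RPMI medium with 10% fetal bovine serum and macrophage colony-stimulating factor (M-CSF), and were either treated with lipopolysaccharide (LPS), the cell wall component of Gram-negative bacteria sensed by Toll-like receptor 4, or left untreated as the control. The labels give 1 LPS array and 1 control array, and no dose, duration or animal age, so no difference below has a replicate check, no p-value is given, and precision is limited by the number of arrays.

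Proteins of this network bind DNA as pairs through a basic helix-loop-helix leucine zipper, mostly at the E-box CACGTG. MYC paired with MAX activates genes of growth and ribosome production, whereas the MXD proteins and MNT compete for MAX, bind the same sites and recruit the SIN3 histone deacetylase complex to repress them. MLX is a second hub, which pairs with the glucose-sensing activator MLXIP (MondoA) and with some of the MXD proteins and MNT, and MGA pairs with MAX inside a variant Polycomb complex, PRC1.6. In macrophages, M-CSF is a known inducer of Myc.

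The network was divided on the LPS array. Myc, its partner gene Max and the repressor gene Mxd1 were more than 2-fold higher with LPS, while the repressor genes Mxi1, Mxd3, Mxd4, Mnt and Mga were at least 2-fold lower. Mlx and Mlxip lay within 2-fold. Of the 10 members, 3 were thus higher and 5 lower, against backgrounds of 8.22% higher and 26.2% lower by this size among all 11722 measured genes. A gene counts as measured if its brightest probe set, the one with the highest mean log2 signal, reached the floor, which is the array's own median signal (26.7 units with LPS and 35.1 units in the control), on at least 1 array. All 10 members met this. For a signal under the floor the floor itself stood in the ratio, which makes the fold a bound, written "at least N-fold".

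The ratios are as deposited, and the median of all measured genes was itself at a log2 ratio (LPS over control) of -0.42. After all ratios were centred on that median, 3 members were higher and 4 lower, because Mga came within 2-fold, and the background was 13.1% higher and 15.3% lower. The median log2 ratio of the 10 members was -0.67 as deposited. By probe set, 21 of the 24 were measured, of which 5 passed 2-fold on the higher side and 13 on the lower, beside 8.27% and 26.1% of all 21402 measured probe sets. After centring these were 5 and 9, beside 13.5% and 14.7%. Among the 4494 genes with several probe sets that were under neither floor, the median SD of the log2 ratios within a gene was 0.28, a technical gauge that says nothing of the spread between cultures.

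**Figure D1:**
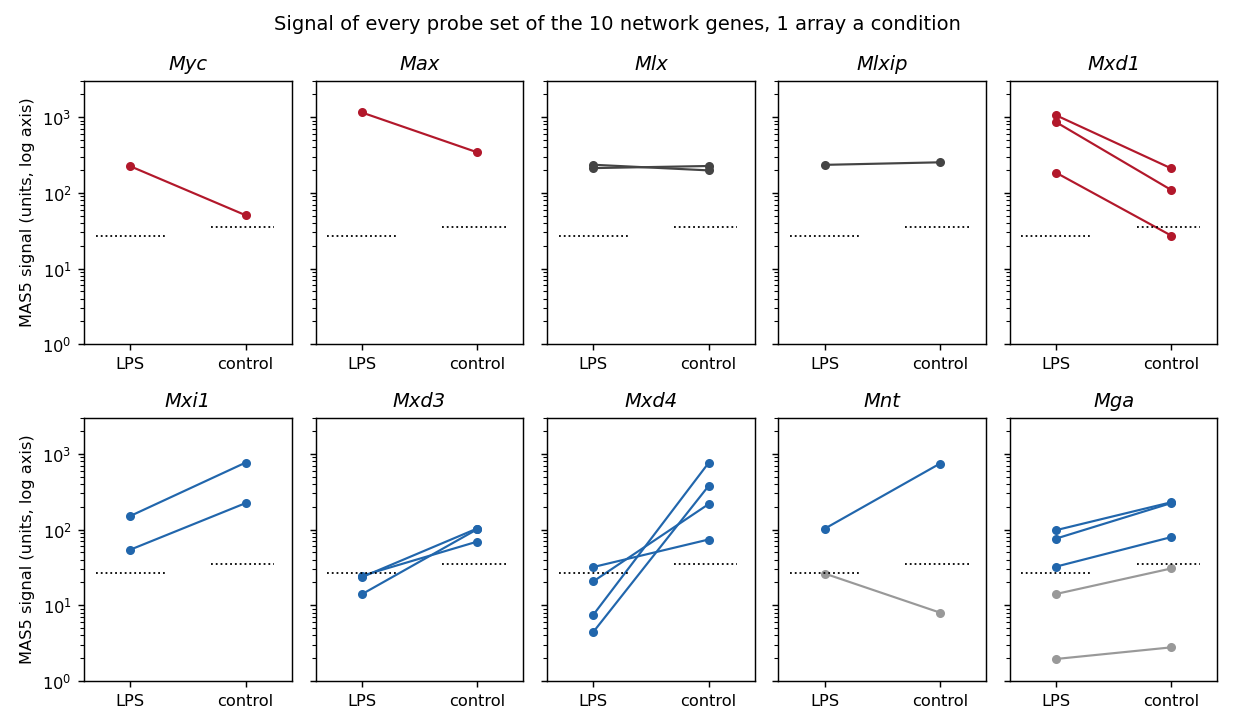
Signal of every member probe set on the LPS array (left of each panel) and the control array (right), on a log axis; a line joins the 2 readings of a probe set and dotted marks show each array's floor. Red lines are those past 2-fold higher with LPS, blue lines past 2-fold lower, dark grey lines within 2-fold, and light grey lines under both floors, with Myc, Max and Mxd1 in red.

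The macrophage identity of both samples was plain in the values. All 9 macrophage markers examined, among them Csf1r and Adgre1, reached the floor on both arrays, with summed signals of 59457 units with LPS and 55188 units in the control. Of markers of 8 other cell types, the sums reached 576 units with LPS and 374 units in the control for neutrophils, and at most 122 units with LPS and 168 units in the control for any other type. T cell and NK cell markers reached the floor on neither array. Of 4 early progenitor markers, 1 reached it with LPS and 3 in the control. Of 6 neutrophil markers, 3 did with LPS and 2 in the control, and each remaining type had at most 1 on either array. Proliferation markers moved with several members: 9 of the 11 measured were at least 2-fold lower and 0 higher (median log2 ratio -1.87), beside 26.2% lower, 8.22% higher and a median of -0.42 over all measured genes. After median centring 8 were lower, beside 15.3%, and their part in the values below was not tested. In such bulk samples, fewer cells of a kind and less RNA per cell cannot be told apart.

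Myc encodes the activator of the network. Its probe set, 1424942_a_at, read 224 units with LPS and 50.6 units in the control, a 4.44-fold higher signal. The control value lies close to the floor, and a floor raised to the 65th percentile lies above it, so that the log2 ratio, 2.15 as deposited, is then a bound of at least 1.30. Myc ranked 389 from the top among the 11722 measured genes, and the 1704 genes of like brightness (mean log2 signal within 0.5) had a median log2 ratio of -0.81.

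Max encodes the common partner of MYC, the MXD proteins, MNT and MGA. Its probe set, 1423501_at, read 1153 units with LPS and 344 units in the control, a 3.36-fold higher signal with both readings far above the floor. The log2 ratio was 1.75 as deposited and 2.07 after loess normalization, which removes the trend of the ratio with brightness. The log2 ratio of Myc exceeded that of Max by 0.40 as deposited, and with a pseudocount of 16 in place of the floor the ratios were 1.85 for Myc and 1.70 for Max. Under a floor at the 65th percentile Myc has a bound alone, which gives no order with Max.

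The genes of the other hub and of its activator partner were near level. Mlx was read by 2 probe sets. The first, 1418437_a_at, read 212 units with LPS and 226 units in the control, and the second, 1425930_a_at, read 235 units with LPS and 198 units in the control, so that their log2 ratios of -0.09 and 0.25 straddled 0. Mlxip, read by 1426979_at, had 234 units with LPS and 253 units in the control, a log2 ratio of -0.11. After median centring these ratios turned positive, at 0.33 for the first Mlx probe set and 0.31 for Mlxip, and both genes stayed within 2-fold under all scalings tried. The log2 ratio of Max exceeded that of Mlx by 1.84.

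Mxd1, whose product is a MAX-binding repressor linked to terminal differentiation, was the MXD gene with a higher signal on the LPS array. Its 3 probe sets all gave the same direction. The brightest, 1434830_at, read 1059 units with LPS and 210 units in the control, 5.05-fold higher. The second, 1455104_at, read 860 units with LPS and 109 units in the control, 7.89-fold higher, and the third, 1422002_at, read 185 units with LPS and 27.2 units, under the floor, in the control, at least 5.26-fold higher. Mxd1 and Myc were close in size of change, with log2 ratios of 2.33 and 2.15, although the genes encode opposing partners of MAX.

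The remaining MXD genes were lower with LPS. Mxi1, which encodes the repressor also called MXD2, had 2 probe sets, of which 1450376_at read 151 units with LPS and 767 units in the control, 5.07-fold lower. The other, 1425732_a_at, read 54.2 units with LPS and 224 units in the control, 4.12-fold lower, so both readings stood above the floor on each array. Mxd3, a repressor gene known for expression in cycling cells, was under the floor with LPS on all 3 of its probe sets. These read 23.4, 24.4 and 14.0 units with LPS, against 103, 69.2 and 101 units in the control in the same order of probe sets (1438847_at, 1422970_at and 1448878_at). The bounds were at least 3.87-fold, at least 2.59-fold and at least 3.77-fold lower. A floor at the 65th percentile takes the bound of the brightest Mxd3 probe set to a log2 ratio of -0.78, within 2-fold. Among the proliferation markers, Bub1, a spindle checkpoint kinase gene, was 6.21-fold lower, the cyclin gene Ccna2 5.14-fold lower and the replication licensing gene Mcm3 4.49-fold lower. For Mcm3 this is the brightest of 5 probe sets. The weakest of them had a log2 ratio of -0.75, within 2-fold, and their median was -1.59.

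Mxd4 had the lowest ratio of the network. Its brightest probe set, 1434378_a_at, read 7.44 units with LPS, under the floor, and 756 units in the control, at least 28.3-fold lower. A further 2 probe sets were likewise under the floor with LPS: 1434379_at read 4.41 units with LPS and 376 units in the control, at least 14.1-fold lower, and 1422574_at read 20.6 units with LPS and 216 units in the control, at least 8.11-fold lower. The last, 1422575_at, read 31.9 units with LPS and 73.8 units in the control, 2.31-fold lower. Its log2 ratio was -0.79 after median centring and -0.75 after loess, both within 2-fold. All 4 probe sets gave 1 direction, but their log2 ratios spread between -4.82 and -1.21. The log2 ratio of Mxd1 exceeded that of Mxd4 by at least 7.16, that of Mxi1 by 4.68 and that of Mxd3 by at least 4.29.

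**Figure D2:**
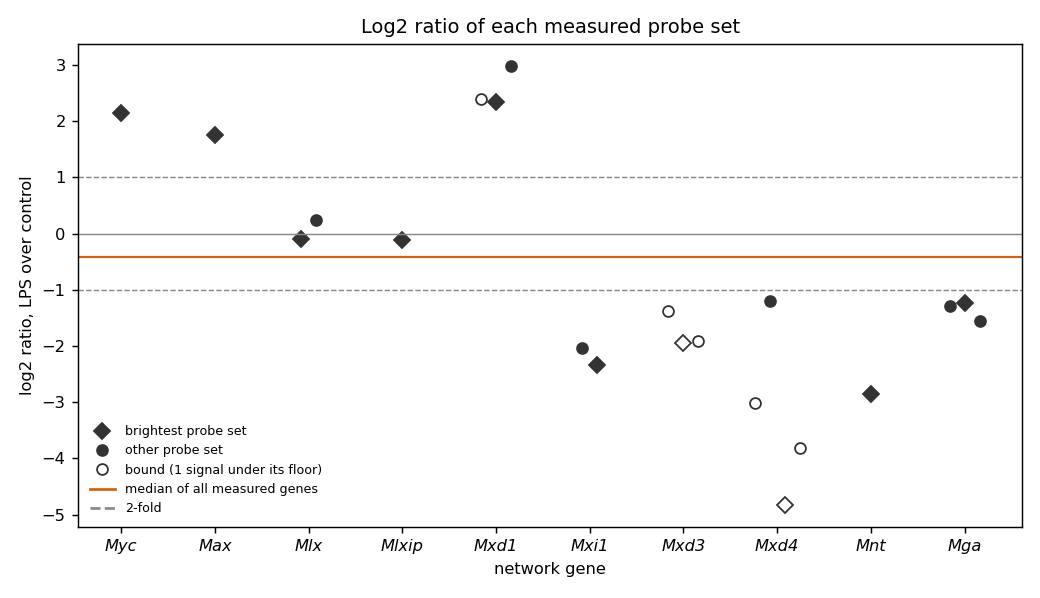
Log2 ratio (LPS over control, vertical axis) of each measured probe set of the 10 genes (horizontal axis); diamonds are the brightest probe set of a gene, open symbols are bounds, dashed lines mark 2-fold and the orange line marks the median of all measured genes at -0.42. The 3 Mxd1 probe sets lie above 2 and the 4 Mxd4 probe sets lie between -4.82 and -1.21.

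Mnt and Mga encode the other MAX-binding repressors. Mnt, whose product is a broadly expressed antagonist of MYC, was read by 1418192_at at 102 units with LPS and 743 units in the control, 7.25-fold lower. Its other probe set, 1418193_at, was under both floors at 26.2 units with LPS and 7.99 units in the control and gives no fold. Mga had 5 probe sets, of which 3 were measured. The brightest, 1431232_a_at, read 98.1 units with LPS and 230 units in the control, 2.34-fold lower, and the others were 2.95-fold lower (1434746_at, 75.9 units with LPS and 224 units in the control) and 2.46-fold lower (1422646_at, 32.3 units with LPS and 79.5 units in the control). The 1879 genes as bright as Mga had a median log2 ratio of -0.72, against -1.23 for Mga itself, and its ratio was -0.80 after median centring and -0.59 after loess, both within 2-fold. The 2 Mga probe sets under both floors, 1442356_at and 1433012_at, give no fold.

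**Figure D3:**
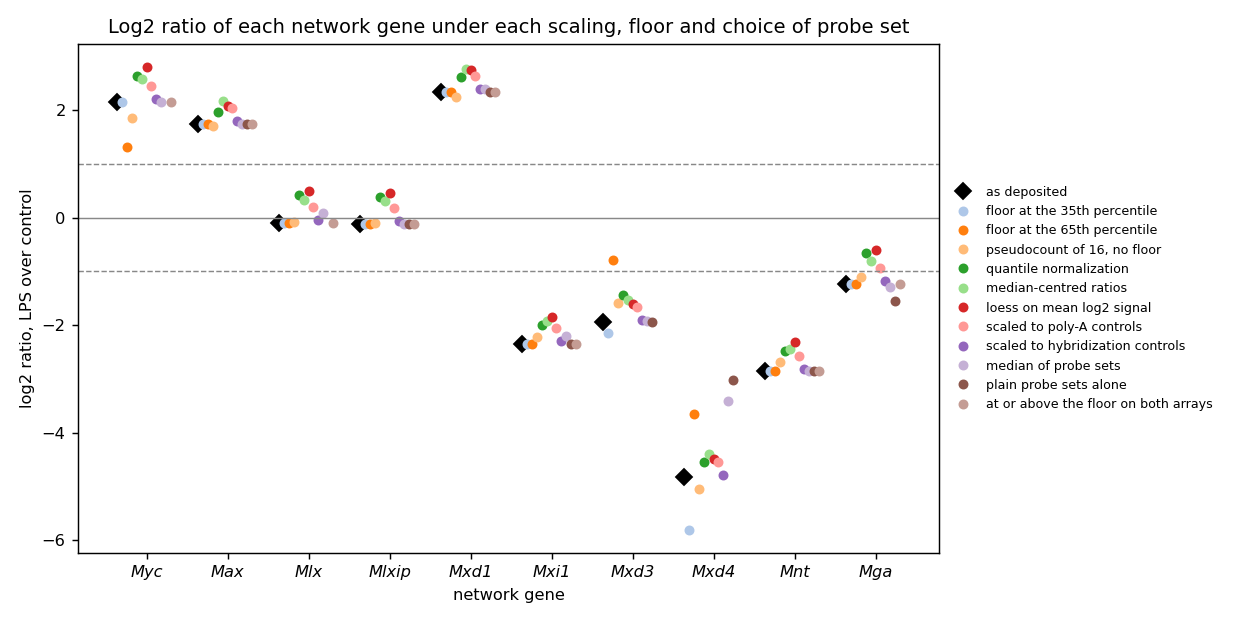
Log2 ratio (LPS over control, vertical axis) of each network gene (horizontal axis) as deposited (black diamonds) and under other scalings, floors and choices of probe set (coloured points), with dashed lines at 2-fold. Mga and Mxd3 each have points inside the 2-fold lines, Mlx and Mlxip lie on either side of 0, and the other 6 genes stay beyond 2-fold.

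Because these proteins act at E-boxes, the 250 bases before the annotated starts of the genes (RefSeq, GRCm38.p6) were searched for CACGTG, which reads the same on both strands. Starts for 9 of the 10 members, all but Myc, were matched, with 11 windows in all. The E-box stood in 3 of these windows, those of Mlx, Mnt and Mxd4, against 6.02% of all 32851 windows. Of these genes, Mnt and Mxd4 were lower on the LPS array and Mlx was within 2-fold. The sites are shown 5′ to 3′ on the gene's strand with 12 bases on either side and the E-box in capitals, because they are the sequence that network members bind.
Mxd4 (chr5:34187912-34187941, minus strand): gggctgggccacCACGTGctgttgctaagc
Mnt (chr11:74830789-74830818, plus strand): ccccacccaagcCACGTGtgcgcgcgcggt
Mlx (chr11:101087238-101087267, plus strand): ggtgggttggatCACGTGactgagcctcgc
The first base of the E-box lies 219 bases before the start in Mxd4, 123 bases before it in Mnt and 40 bases before it in Mlx. A window before 1 start can still lie within the annotated extent of its gene. This held for all 250 bases of the Mlx window, 118 of the Mnt window and 0 of the Mxd4 window. A match is a description of these letters and no evidence of binding. The other motifs searched on both strands were GGGANTTCC, a kappaB-type sequence (1.43% of all windows), GAAANNGAA, an interferon response type (7.13%), and TTTCCCGC, an E2F type (0.895%), and each was in 0 of the 11 member windows.

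The promoter of Mxd4 is given whole, since it belongs to the member with the largest difference. It covers chr5:34187711-34187960 on the minus strand of GRCm38.p6, with the E-box in capitals.
Mxd4: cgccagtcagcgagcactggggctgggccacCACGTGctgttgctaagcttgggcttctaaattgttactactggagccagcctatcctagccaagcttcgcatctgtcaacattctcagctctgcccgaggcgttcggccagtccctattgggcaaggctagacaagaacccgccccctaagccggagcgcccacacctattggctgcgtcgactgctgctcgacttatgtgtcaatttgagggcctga

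Genes that work with the network were set beside it in lists that were chosen with earlier results of these data known. Among other genes of the family and of related E-box factors, 4 of 6 were measured. Mycl, a MYC paralogue, read 71.4 units with LPS and 27.9 units, under the floor, in the control, at least 2.04-fold higher, and its 3 measured probe sets had log2 ratios between 1.03 and 3.02. Under a floor at the 65th percentile the bound on the log2 ratio of Mycl was at least -0.35, which gives neither a direction nor a 2-fold call. Mycn, the other paralogue, read 7.66 units with LPS, under the floor, and 53.1 units in the control, at least 1.99-fold lower. Usf2, an E-box factor outside the network, was 2.60-fold lower, but within 2-fold after median centring (-0.95) and loess (-0.97). It stayed past 2-fold under quantile normalization (-1.09) and scaling to the poly-A controls (-1.09), and its other probe set was at -2.14 as deposited. Mlxipl, which encodes the MLX partner ChREBP, was under the floor on both arrays.

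Cofactors of MYC mostly lay within 2-fold. Among 16 measured, 1 was higher and 1 lower, beside 8.22% higher and 26.2% lower over all measured genes, and the median log2 ratio was -0.28, compared with -0.42. Ep400, a chromatin remodeller gene, was 2.34-fold higher, but its 5 probe sets ranged from -0.00 to 1.26. Wdr5, whose product docks MYC on chromatin, had its brightest probe set 2.29-fold lower, at -1.20, and its other probe set at -0.05, and was within 2-fold after median centring (-0.78). Bptf and Trrap were at -0.91 and -0.91 on the log2 scale.

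Subunits of the SIN3 complex, through which MXD proteins and MNT repress, had a share of lower genes near the background. Among 14 measured subunits 2 were higher and 3 lower (median -0.34), beside 8.22% higher, 26.2% lower and a median of -0.42 over all measured genes. After median centring 2 were higher and 2 lower, beside 13.1% and 15.3%. Sap30 read 4425 units with LPS and 1177 units in the control, 3.76-fold higher. Ing2, a subunit that binds methylated histone H3, read 39.1 units with LPS and 383 units in the control, 9.78-fold lower. Sin3a, the scaffold gene, was 2.52-fold lower, but within 2-fold after median centring (-0.91), quantile normalization (-0.81) and loess (-0.73). It was at -1.04 with scaling to the poly-A controls, and its 3 probe sets ranged from -2.00 to -1.33 as deposited. The brightest probe set of Ing1 was 2.79-fold lower, with 3 probe sets between -1.48 and 0.24.

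MYC protein turnover was followed in 17 measured genes, of which 7 passed 2-fold on the lower side and 1 on the higher (median -0.65). The shares over all measured genes were 26.2% lower and 8.22% higher, around a median of -0.42. After median centring 1 was higher and 4 were lower (median -0.23), beside 13.1% higher and 15.3% lower. Skp2, a ubiquitin ligase subunit gene of the cell cycle, read 40.2 units with LPS and 316 units in the control, 7.86-fold lower, and its 6 probe sets ranged from -3.41 to -1.33. Aurka, whose kinase stabilizes MYCN, was 5.0-fold lower, and Cip2a, an inhibitor of the phosphatase PP2A that protects MYC, was 4.32-fold lower. The list thus joins a ubiquitin ligase gene with genes that protect MYC proteins, so its counts and median give no direction for turnover itself. Ppp2r5a, which encodes a regulatory subunit of that phosphatase, was 2.19-fold higher, at 2770 units with LPS and 1267 units in the control, but at 0.91 on the log2 scale as the median of its probe sets.

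Partners of MGA in PRC1.6 were measured for 9 genes, of which 3 were lower and 0 higher (median -0.66). Over all measured genes 26.2% were lower and 8.22% higher, with a median of -0.42. After median centring 3 were still lower and 0 higher (median -0.24), beside 15.3% lower and 13.1% higher. E2f6, which encodes a DNA-binding repressor of the complex, read 35.1 units with LPS and 257 units in the control, 7.33-fold lower, although its other probe set was at -0.70. Yaf2 was 3.47-fold lower, with its 2 probe sets at -2.04 and -1.80. Pcgf6, the subunit that defines the complex, was 2.75-fold lower, with its other probe set at -0.41, and came within 2-fold after loess (-0.97) and quantile normalization (-0.94).

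Most MYC-activated growth genes lay within 2-fold. Among 28 measured, 22 did so, 4 were higher and 2 lower, and centring on the median made this 6 and 2. The background was 8.22% higher and 26.2% lower over all measured genes as deposited, and 13.1% and 15.3% centred. The median log2 ratio of the list was 0.02, against -0.42 over all measured genes, and it was 0.44 after median centring, 0.31 with scaling to the poly-A controls, 0.21 after loess and 0.13 after quantile normalization. It was -0.04 with plain probe sets alone and -0.00 when a gene was read as the median over its probe sets. Ccnd2, which encodes cyclin D2, stood far from the rest at 5571 units with LPS and 103 units in the control, 54.0-fold higher, and its 7 probe sets ranged from 4.44 to 6.36. Rrs1, a ribosome assembly gene, was 3.90-fold higher, and Odc1, the rate-limiting enzyme of polyamine synthesis, was 2.96-fold higher. Wdr12, another ribosome assembly gene, read 45.2 units with LPS and 163 units in the control and was 3.61-fold lower.

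Genes known to be repressed by MYC likewise had a share of lower genes near the background. The list had 10 measured genes, 2 of them higher and 3 lower (median -0.61), beside 8.22% higher, 26.2% lower and a median of -0.42 over all measured genes. After median centring 2 were higher and 2 lower, beside 13.1% and 15.3%. Cdkn2c, an inhibitor of cyclin-dependent kinases, read 201 units with LPS and 1795 units in the control, 8.94-fold lower. Cebpa, a myeloid transcription factor gene, read 30.0 units with LPS and 817 units in the control, 27.2-fold lower. The LPS value of Cebpa lies close to the floor, and a floor at the 65th percentile makes its log2 ratio a bound of -3.77. Ndrg1 was 2.34-fold lower, but within 2-fold after median centring (-0.80) and scaling to the poly-A controls (-0.93). Gadd45b, a stress-response gene, was 7.5-fold higher by its brightest probe set, with 3 probe sets from 0.28 to 2.91.

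Targets of MLXIP and of ChREBP had a share of lower genes near the background. Among 10 measured, 3 were lower and 0 higher (median -0.58), beside 26.2% lower, 8.22% higher and a median of -0.42 over all measured genes. After median centring 1 was lower and 0 higher, beside 15.3% and 13.1%. Txnip, the glucose-responsive gene best known as a target of MLXIP, read 722 units with LPS and 3658 units in the control, 5.06-fold lower, and its 2 probe sets were at -2.42 and -2.34. Khk, the fructokinase gene, was 2.66-fold lower and Scd1, a fatty acid desaturase gene, 2.08-fold lower, but after median centring both were within 2-fold, at -0.99 for Khk and -0.63 for Scd1. Mlx and Mlxip themselves lay within 2-fold, as given above.

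The promoter of Txnip is shown because it carries a carbohydrate response element, the paired E-box-like site at which MLX pairs are known to bind. In the 250 bases before its start (chr3:96557707-96557956, plus strand, GRCm38.p6), a pair of CACGAG copies 5 bases apart matched, 85 bases before the start, and is in capitals with its spacer. The motif was chosen after this sequence was seen, and 1 of 32851 windows held it on either strand.
Txnip: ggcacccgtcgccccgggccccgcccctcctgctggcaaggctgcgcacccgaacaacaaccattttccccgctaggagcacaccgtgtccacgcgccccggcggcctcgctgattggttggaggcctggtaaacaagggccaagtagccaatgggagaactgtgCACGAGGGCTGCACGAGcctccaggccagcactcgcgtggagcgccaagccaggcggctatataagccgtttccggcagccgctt

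**Figure D4:**
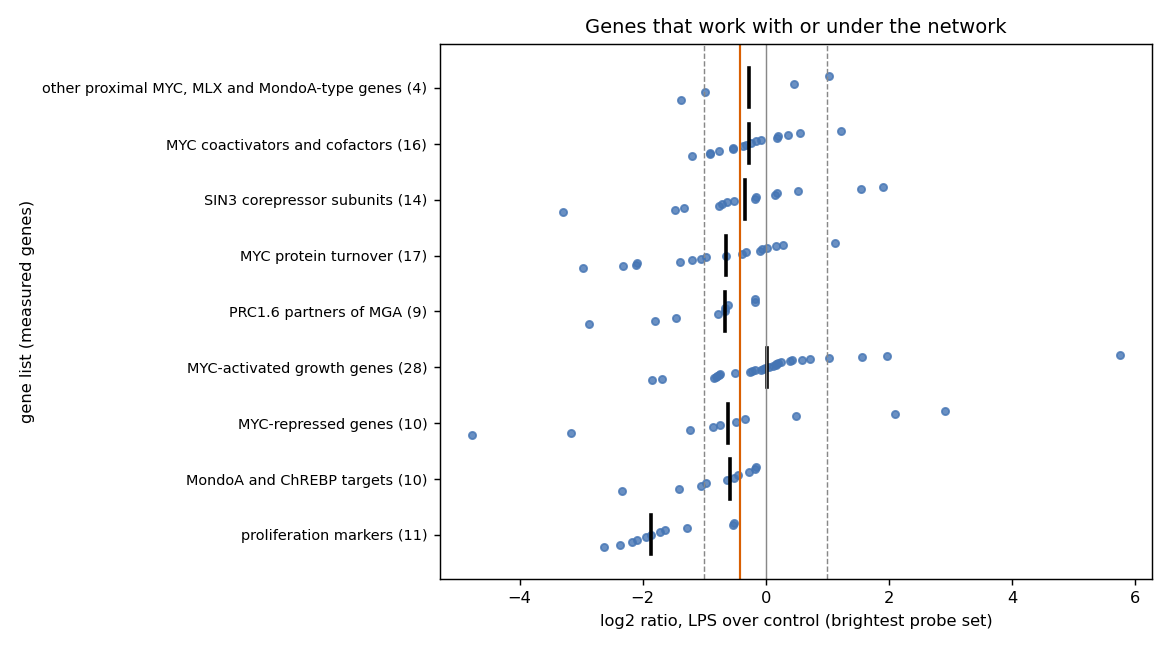
Log2 ratio (LPS over control, horizontal axis) of each measured gene in the lists beside the network, with the number of measured genes in brackets; points are genes, black bars list medians, dashed lines 2-fold and the orange line the median of all measured genes. The proliferation markers have the lowest median, -1.87, and Ccnd2 lies alone at 5.76 among the MYC-activated growth genes.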

How the data were processed

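The authors deposited intensity values on a linear scale, which were computed by MAS5, per the submitters' processing notes, from the perfect-match and mismatch probes of each probe set. No MAS5 version or scaling is given in the sources read, and no detection calls were used. Arrays were grouped by title, 1 LPS and 1 control, so no test was run. Members and lists were chosen with earlier results of these data known.

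From these values log2 ratios (LPS minus control) were computed with Python 3.11.15, numpy 2.4.6 and pandas 2.3.3. Of 45101 probe sets, 64 were array controls, and 932 assigned to several genes were left out. The floor was the 50th percentile of each array and the call 2-fold. Symbols were checked through RefSeq gene identifiers. Named genes are all members and, per list, up to 3 with the largest ratio along the list's median and 1 against it. In all, 12 alternatives changed the floor, scaling, probe set choice or threshold, and 1 more was added after the data were seen. The steps were tested on simulated arrays with changes placed only in genes well above the floor, which leaves members near the floor uncovered. Promoters are RefSeq windows.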

Additional observations from a re-analysis of the deposited data

How the results depend on the processing

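Over 126 values of single members under 13 alternatives, 120 kept their side of the threshold, 6 came within it and 0 changed sign past it. Those 6 were Mxd3 with a 65th-percentile floor and Mga under quantile normalization (-0.66), median centring, loess, scaling to the poly-A controls (-0.94) and the 3-fold threshold. Part of the 120 could not move: a 1.5-fold threshold keeps every gene past 2-fold, and a gene with 1 probe set has the same median. Myc and Mlx had no value with plain probe sets alone. Quantile normalization, loess, median centring and poly-A scaling brought the median of all genes nearer to 0. Mlx and Mlxip, within 2-fold throughout, were positive under these 4, and Mlx also with the median of its probe sets.

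The count of members lower, 5 as deposited, was 3 when a gene had to be under neither floor, which drops Mxd3 and Mxd4 by construction. The count of member probe sets lower, 13 as deposited, was 8 with a 65th-percentile floor, 8 under quantile normalization, 8 at 3-fold and 7 with neither reading under its floor. Mxd4 ranged from -5.80 to -3.02, -3.02 being with plain probe sets alone, which leave out its brightest. Over all measured genes, 964 were higher and 3076 lower as deposited. The counts were 1537 and 1790 after median centring, 1466 and 1684 after loess, 1372 and 1828 after quantile normalization, 612 and 1428 at 3-fold, and 1524 and 4926 at 1.5-fold.

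No paired analysis was possible because each condition has 1 array. Signals near the floor (Myc in the control, Mxd3 and Mxd4 with LPS) limit the sizes given.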

Other observations

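Germline genes that PRC1.6 is known to silence were mostly under the floor. Of 11 such genes with a probe set, 9 were under the floor on both arrays, among them the meiotic genes Sycp1 and Sycp3, beside 35.6% of all 18193 genes. Ddx4, which encodes a germ cell RNA helicase, read 86.2 units with LPS and 14.2 units, under the floor, in the control, at least 2.46-fold higher. With the floor at the 65th percentile the bound on its log2 ratio was at least -0.08, which gives no direction. Stag3, a meiotic cohesin gene, read 14.7 units with LPS, under the floor, and 47.0 units in the control, at least 1.76-fold lower.

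The genes whose pair of log2 signals lay nearest to that of Mxd1 over the 2 arrays were Etv6, Wdr43 and Mitd1, with log2 ratios of 2.29, 2.28 and 2.42. With 2 arrays and different probe sets, this describes likeness of the values only. For Mxd4, whose LPS signal was under the floor, no nearest genes are given.

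The promoter of Arrdc4, another MLXIP target, also held an E-box, 193 bases before its start, and its signals were 71.6 units with LPS and 80.0 units in the control.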
